A study of Mus musculus with 3 samples.

Results

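p53 (gene symbol Trp53) and 9 of its direct target genes were examined in mouse ES cells with normal or reduced levels of the nucleoporin NUP153, a protein of the nuclear basket of the nuclear pore complex. The 10 genes were chosen by name, as a list of p53 and its known targets, from the 24421 genes for which reads were counted, and all 10 averaged 10 reads or more per library. Reads were counted by RNA-Seq in 3 libraries, with 1 library for each condition. The control library came from EL16.7 cells that carried a scramble shRNA, and the NUP153 KD-1 and NUP153 KD-2 libraries from the same line with either of 2 different NUP153 shRNAs. EL16.7 is a female ES cell line of the background F2:129S1/CastEiJx 129S1. In all conditions the cells were undifferentiated, were kept with LIF, had been infected with lentivirus and selected with 2 μg/ml puromycin for 2 days, and grew on γ-irradiated embryonic fibroblasts of DR4 mice. These feeder cells are part of the culture, and no removal of them before RNA isolation is described in the sources used here.

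p53 is a transcription factor that is stabilized and activated by DNA damage and other stress. It binds DNA as a tetramer and raises the transcription of genes that arrest the cell cycle, trigger apoptosis, repair DNA or adjust metabolism, and among its targets are MDM2 and other proteins that switch p53 off again. Mouse ES cells hold p53 and respond to damage, but they cycle with a very short G1 phase, and the p53 target p21, the product of Cdkn1a, is known to be low in them.

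A p53 binding site is built from half-sites of 10 bases, each of 3 purines, a C, 2 bases that are A or T, a G and 3 pyrimidines, which reads as the same pattern on both strands. RefSeq promoter windows (GRCm38.p6) of 300 bases, from 250 bases before to 50 bases after a transcript start, matched 8 of the 10 genes by symbol and numbered 12 for them. They are shown here because p53 acts on these genes through DNA. The half-site was found in 6 of the 12 windows and in 6 of the 8 genes, whereas 8.36% of the 32851 windows of all genes held it. Since the genes were listed as p53 targets, this share describes the list and was not tested. Cdkn1a was the single gene of the list with 2 matches to the half-site pattern in a window, 12 bases apart, at 73 and 51 bases before a transcript start. Half-site pairs up to 13 bases apart occurred in 24 of all windows (0.0731%). The match GAACATGTCT is followed directly by tgacatgttc, which departs from the pattern at its first base and was therefore not marked. Which of these bases p53 binds was not tested. The other Cdkn1a window held no half-site. The window with the pair lies at chr17:29090729-29091028 on the plus strand, with the half-sites in capitals:
Cdkn1a: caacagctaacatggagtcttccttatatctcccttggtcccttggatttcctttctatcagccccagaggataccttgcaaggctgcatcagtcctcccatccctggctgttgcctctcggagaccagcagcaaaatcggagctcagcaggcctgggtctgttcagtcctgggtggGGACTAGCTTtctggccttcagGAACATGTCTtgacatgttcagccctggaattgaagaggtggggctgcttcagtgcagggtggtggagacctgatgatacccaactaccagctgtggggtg

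The other 5 genes had 1 half-site each, which is given in capitals within 60 bases. The stretches lie at chr11:69580259-69580318 on the plus strand (Trp53), chr10:117710910-117710969 on the minus strand (Mdm2), chr11:40755437-40755496 on the minus strand (Ccng1), chr7:45467065-45467124 on the minus strand (Bax) and chr10:41887241-41887300 on the plus strand (Sesn1).
Trp53: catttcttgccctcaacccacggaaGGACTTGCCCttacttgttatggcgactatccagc
Mdm2: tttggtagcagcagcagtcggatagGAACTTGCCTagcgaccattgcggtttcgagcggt
Ccng1: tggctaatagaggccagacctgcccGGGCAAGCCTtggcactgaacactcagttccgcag
Bax: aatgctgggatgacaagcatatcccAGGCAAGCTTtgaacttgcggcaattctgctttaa
Sesn1: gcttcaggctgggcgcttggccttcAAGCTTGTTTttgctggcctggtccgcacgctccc
The windows of Bbc3 and Phlda3 did not hold these letters, which says nothing about sites elsewhere in or near those genes.

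The control library held 72344726 reads on genes, the KD-1 library 85258834 and the KD-2 library 69839336. Nup153 itself, on chromosome 13 from 46679902 to 46727849, had 27870 control reads, 16451 KD-1 reads and 11126 KD-2 reads, which after scaling is 0.504 and 0.371 of control. All 8 ES cell markers examined, among them Pou5f1, Sox2 and Nanog, had reads in each library, and their summed level in CPM, counts scaled to library depth, was 4749 (control), 5177 (KD-1) and 3484 (KD-2). Of 15 fibroblast markers, which the feeder cells express, all had reads in each library, and their summed level was 1931 CPM (control), 1066 (KD-1) and 3440 (KD-2). In KD-1, 14 of the 15 were below control and 9 were past 1.5-fold, with a range of log2 ratios from -2.01 for Postn to 0.08 for Col6a3. In KD-2 all 15 were above control, 13 of them past 1.5-fold, from 0.37 for Thy1 to 1.87 for Loxl1. The libraries therefore differed in their fibroblast transcripts in opposite directions, and the part of this difference in the results on p53 targets was not tested. In such bulk samples fewer cells of a type and less RNA per cell cannot be told apart.

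Expression is given as RPKM, reads scaled by exon length and by library depth, the latter with the upper quartile, so that genes can be compared with each other. The p53 targets spanned a wide range. In control, Ccng1 was highest at 169 RPKM, followed by Bax at 133, Trp53inp1 at 54.9, Phlda3 at 45.5 and Mdm2 at 43.6. Below a gap of 5.22-fold came Trp53 at 8.34 RPKM, Bbc3 at 5.25, Cdkn1a at 4.82, Sesn1 at 4.44 and Zmat3 at 3.14. The same 5 genes made up the upper group with either shRNA, with Ccng1 and Bax first and second in each library. Phlda3 and Mdm2 differed by 1.05-fold in control and by 1.02-fold in KD-1, and Bbc3, Cdkn1a and Sesn1 by less than 1.1-fold from neighbour to neighbour in both. With 1 library per condition no spread was available to separate such neighbours. Against the order in control, KD-2 differed at 2 places, with Phlda3 above Trp53inp1 and Bbc3 above Trp53.

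**Figure D1:**
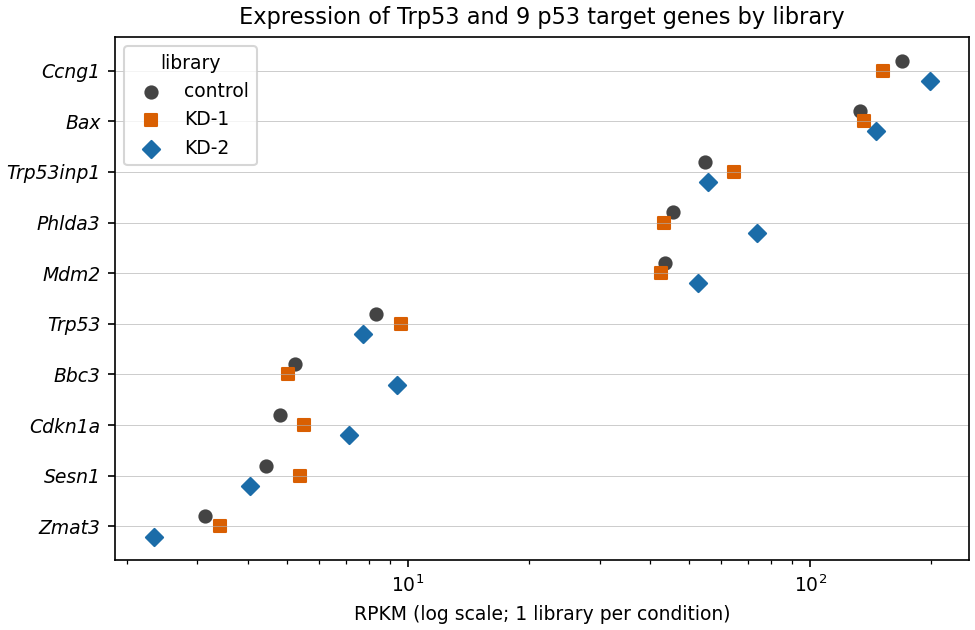
RPKM of Trp53 and 9 p53 target genes on a log axis, with 1 point for each of the control, KD-1 and KD-2 libraries. Ccng1 and Bax are above 130 RPKM in every library, whereas Trp53, Bbc3, Cdkn1a, Sesn1 and Zmat3 are below 10 RPKM, and the KD-2 points of Bbc3 and Phlda3 lie apart to the right.

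The question of each comparison is whether p53 or its targets differ between a NUP153 knockdown library and control. Ratios are log2 ratios of scaled reads, and the 95% intervals cover the counting of reads only, since no replicates were sequenced. Differences between cultures are not part of these intervals. A gene was taken as past the fold when it was more than 1.5-fold higher or lower. In KD-1 none of the 10 genes was past the fold, where 14.2% of all 16670 genes that averaged 10 reads or more were (8.63% higher and 5.62% lower). In KD-2, 2 of the 10, Bbc3 and Phlda3, were past the fold against control, both higher, where 27.3% of all genes were past it and 17.1% were higher. Between KD-2 and KD-1 the same 2 genes were past the fold, both higher in KD-2, where 30.1% of all genes were past it and 16.1% were higher in KD-2. None of the 10 was past the fold on the same side in both knockdown libraries, where 3.64% of all genes were higher and 0.99% lower in both. The shares of the 10 genes are thus below or near those of all genes in each comparison. For KD-1 the median log2 ratio of the 10 genes was 0.07 and that of all genes 0.02, and for KD-2 they were 0.18 and -0.02.

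**Figure D2:**
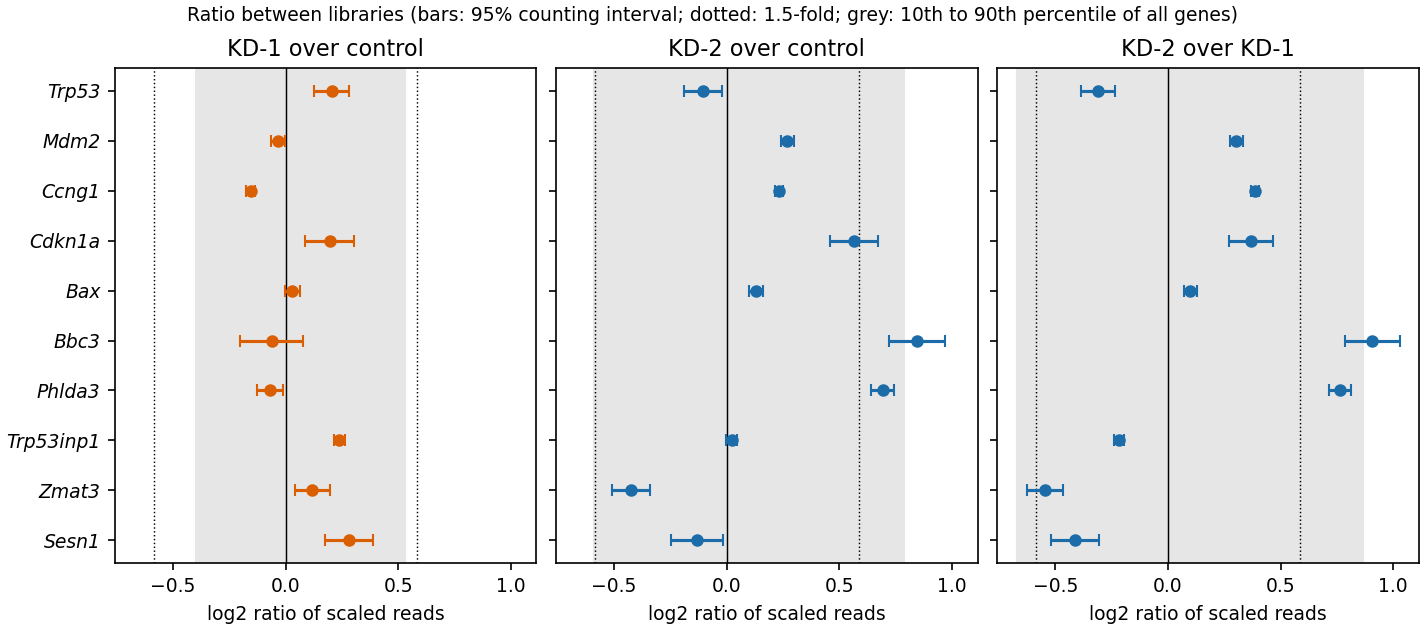
Log2 ratio of scaled reads for each of the 10 genes in KD-1 over control, KD-2 over control and KD-2 over KD-1, with bars for the 95% counting interval, dotted lines at 1.5-fold and a grey band from the 10th to the 90th percentile of all genes. In KD-1 all 10 points lie within the band and between the dotted lines. In KD-2 over control Bbc3 and Phlda3 lie beyond the line for 1.5-fold, and Bbc3 alone is beyond the band.

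Trp53, on chromosome 11 from 69580348 to 69591873, encodes p53 itself. It had 2357 control reads, 3183 KD-1 reads and 2360 KD-2 reads, or 8.34, 9.61 and 7.75 RPKM. KD-1 was the highest library and KD-2 the lowest. The log2 ratio was 0.20 in KD-1 (interval 0.13 to 0.28) and -0.11 in KD-2 (interval -0.19 to -0.02), and with library totals in place of upper-quartile scaling it turned to 0.05 in KD-2. Since p53 is regulated mainly through the stability of its protein, its mRNA does not measure its activity.

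Mdm2 and Ccng1 belong to the feedback on p53. Mdm2, on chromosome 10 from 117688875 to 117710758, encodes the ubiquitin ligase that targets p53 for degradation. It had 15473 control reads, 17690 KD-1 reads and 20079 KD-2 reads, or 43.6, 42.5 and 52.5 RPKM. Its log2 ratio was -0.04 in KD-1 (interval -0.07 to -0.004) and 0.27 in KD-2 (interval 0.24 to 0.30). Ccng1, on chromosome 11 from 40748552 to 40755309, encodes cyclin G1, which acts with a phosphatase on MDM2. It had 41408 control reads, 43581 KD-1 reads and 52402 KD-2 reads, or 169, 152 and 198 RPKM. Both genes were thus highest in KD-2 and lowest in KD-1. For Ccng1 the log2 ratio was -0.15 (KD-1) and 0.23 (KD-2), with 66.5% of all genes at a lower ratio in KD-2.

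Cdkn1a, on chromosome 17 from 29090979 to 29100722, encodes the inhibitor of cyclin-dependent kinases p21 and has the pair of pattern matches shown above. It had 1197 control reads, 1607 KD-1 reads and 1907 KD-2 reads, or 4.82, 5.52 and 7.13 RPKM. It was above control in both knockdown libraries, with a log2 ratio of 0.20 in KD-1 (interval 0.09 to 0.31) and 0.56 in KD-2 (interval 0.46 to 0.67). The latter is 1.48-fold, just below the threshold, and 82.2% of all genes had a lower ratio in KD-2. TMM scaling moved it to 0.61, DESeq2's size factors to 0.60 and library totals to 0.72, all past the fold. With each of these scalings 3 of the 10 genes were past it, all higher. Of all 16670 genes, 3098, 3077 and 3942 were past it higher with them, against 2847 with the upper quartile.

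Among the 10 genes, Bbc3 and Phlda3 had the highest ratios in KD-2, and both act in apoptosis. Bbc3, on chromosome 7 from 16308398 to 16318334, encodes PUMA, a BH3-only protein that releases BAX and BAK. It had 779 control reads, 874 KD-1 reads and 1506 KD-2 reads, or 5.25, 5.03 and 9.42 RPKM. KD-2 stood apart from the other libraries, with a log2 ratio of 0.84 against control (interval 0.72 to 0.97) and of 0.91 against KD-1 (interval 0.79 to 1.03). In KD-1 the ratio was -0.06, with an interval from -0.20 to 0.08 that covers 0. Phlda3, on chromosome 1 from 135766085 to 135769134, encodes a small protein that competes with AKT for membrane lipids and so restrains this survival kinase. It had 4961 control reads, 5540 KD-1 reads and 8635 KD-2 reads, or 45.5, 43.4 and 73.6 RPKM. It followed the pattern of Bbc3, with 0.69 in KD-2 (interval 0.64 to 0.74) and -0.07 in KD-1 (interval -0.13 to -0.01). In KD-2, 91.4% of all genes had a lower ratio than Bbc3 and 87.1% a lower ratio than Phlda3. Fibroblast markers were higher in KD-2 as well, with a median log2 ratio of 0.79, and lower in KD-1, with a median of -0.83, where Bbc3 and Phlda3 were close to control. The part of the feeder cells in these values was not tested.

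Bax, on chromosome 7 from 45461695 to 45466903, encodes the pore-forming effector downstream of PUMA. It had 14625 control reads, 17495 KD-1 reads and 17238 KD-2 reads, or 133, 136 and 145 RPKM. The 3 libraries lay within 1.09-fold of each other, with a log2 ratio of 0.03 in KD-1, whose interval from -0.002 to 0.06 covers 0, and of 0.13 in KD-2. With DESeq2's size factors the value in KD-1 was -0.04. Trp53inp1, on chromosome 4 from 11156441 to 11174379, encodes a nuclear protein that promotes the phosphorylation of p53. It had 24830 control reads, 34338 KD-1 reads and 27139 KD-2 reads, or 54.9, 64.8 and 55.7 RPKM. It was highest in KD-1, at 0.24 (interval 0.22 to 0.26), and at 0.02 in KD-2, whose interval from -0.004 to 0.05 covers 0. The value in KD-2 moved above that interval with TMM (0.06), DESeq2's size factors (0.06) and library totals (0.18).

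Zmat3 and Sesn1 were the targets that were lower in KD-2 than in control. Zmat3, on chromosome 3 from 32334792 to 32365665, encodes an RNA-binding zinc finger protein with a growth-inhibitory function. It had 2509 control reads, 3193 KD-1 reads and 2012 KD-2 reads, or 3.14, 3.41 and 2.34 RPKM. Its log2 ratio was 0.12 in KD-1 (interval 0.04 to 0.20) and -0.43 in KD-2 (interval -0.51 to -0.34), the lowest of the 10 genes, and 19.6% of all genes had a lower ratio in KD-2. Sesn1, on chromosome 10 from 41810574 to 41908436, encodes sestrin 1, which restrains mTORC1 under stress. It had 1237 control reads, 1760 KD-1 reads and 1215 KD-2 reads, or 4.44, 5.40 and 4.05 RPKM. KD-1 was the highest library, at a log2 ratio of 0.28 (interval 0.17 to 0.39), the highest of the 10 genes in KD-1. In KD-2 Sesn1 was at -0.13 (interval -0.25 to -0.02), and at 0.02 with library totals. Trp53, Zmat3, Sesn1 and Trp53inp1 were thus lower in KD-2 than in KD-1, with log2 ratios between -0.54 and -0.22, and Mdm2, Ccng1, Cdkn1a, Bax, Bbc3 and Phlda3 were higher, with ratios between 0.10 and 0.91. Over all genes the median ratio of KD-2 over KD-1 was -0.12. In 6 of the 10 genes KD-1 and KD-2 lay on opposite sides of control with both intervals away from 0, where 19.1% of all genes did. Since these intervals narrow with the number of reads, this share also depends on expression level, and 4 of the 10 genes met it with TMM, with DESeq2's size factors or with library totals.

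The 2 knockdown libraries were then set together against control in the quasi-likelihood test of edgeR, which takes the spread between libraries from KD-1 and KD-2 alone, with 1 residual degree of freedom, although they carry different shRNAs. It called 0 of the 10 genes, where 1 of all 16670 genes was called (0.006%), and 0 of the 10 had an unadjusted p-value under 0.05, where 211 of all genes had one (1.27%). The Wald test of DESeq2 also called 0 of the 10, and 0 of them had an unadjusted p-value under 0.05 in it. In edgeR the largest difference was that of Bbc3, with a log2 fold change of 0.46 (SE 0.48). Its unadjusted p-value of 0.337 was the lowest of the 10 genes, and it was above control in 1 of 2 knockdown libraries. Cdkn1a followed in edgeR with 0.39 (SE 0.45), higher than control in 2 of 2 knockdown libraries, and Phlda3 with 0.36 (SE 0.43), higher in 1 of 2. The adjusted p of the quasi-likelihood test was 1.00 for all 10 genes. Nup153, lower than control in 2 of 2 knockdown libraries, was at -1.19 (SE 0.46). It was not called either, at an adjusted p of 1.00 in edgeR.

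The wider p53 pathway was described with 115 other genes grouped by role, of which 113 averaged 10 reads or more. Casp1 and Sco2 were below it. Sco2 is listed with 0 reads in every library, and its exons overlap those of Tymp on the same strand and of Ncaph2 on the opposite strand, so that reads there could be counted as ambiguous. Among 68 other target genes, 3 were past the fold higher and 3 lower in KD-1, and for KD-2 these counts were 20 and 2. As shares of these genes, 20 of 68 stand beside 17.1% of all genes higher in KD-2 and 3 of 68 beside 8.63% of all genes higher in KD-1. Their median log2 ratio was -0.01 (KD-1) and 0.31 (KD-2). The lower counts stand beside 5.62% (KD-1) and 10.2% (KD-2) of all genes. With DESeq2's size factors 6 of 68 were past the fold lower in KD-1, where 1146 of all 16670 genes were. With library totals 28 were higher and 0 lower in KD-2, where 3942 and 820 of all genes were.

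Target genes of cell cycle arrest had a median of 0.12 (KD-1) and 0.41 (KD-2). Of 11, 4 were past the fold higher in KD-2, which were Btg2 at 0.68, Plk2 at 0.70, Ptprv at 0.65 and Rprm at 0.60, all named after their values were seen, where 17.1% of all genes were higher. In KD-1 Ptprv and Rprm were below control, at 10.9 against 11.7 CPM and 3.26 against 4.51 CPM, and Btg2 and Plk2 were above it. Ptprv and Rprm thus had the direction of the fibroblast markers in both libraries, and the part of the feeder cells was not tested. In KD-1 1 of 11 was past the fold, where 14.2% of all genes were. This was Zfp385a, which encodes a p53 cofactor, with 85 control reads, 177 KD-1 reads and 107 KD-2 reads, and log2 ratios of 0.83 in KD-1 (interval 0.45 to 1.22) and 0.22 in KD-2. Of 14 apoptosis genes, 1 was past the fold in each knockdown, where 14.2% (KD-1) and 27.3% (KD-2) of all genes were. Pmaip1, which encodes the BH3-only protein NOXA, had 1244 control reads, 2574 KD-1 reads and 1409 KD-2 reads. Its log2 ratio was 0.82 in KD-1 (interval 0.72 to 0.92) and 0.07 in KD-2 (interval -0.04 to 0.18). The other was Shisa5, named after its value was seen, at -0.46 (KD-1) and 0.85 (KD-2), which is the direction of the fibroblast markers in both libraries.

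Of 9 DNA repair targets, 8 were below control in the KD-1 library and 6 in the KD-2 library. With library totals 4 of 9 were below control in KD-2. Of 12 genes of metabolism and redox balance, 4 were past the fold higher in KD-2, which were Sesn2 at 0.65, Cpt1c at 0.64, Ephx1 at 0.69 and Dram1 at 0.82, and 1 was lower, Gls2 at -0.68, all named after their values were seen, where 17.1% of all genes were higher and 10.2% lower. Sesn2, a paralogue of Sesn1, was at 0.41 in KD-1. Sesn1 and Sesn2 were thus on the same side of control in KD-1 and on opposite sides in KD-2, where Sesn1 turned to 0.02 with library totals. With library totals Gls2 was not past the fold, since none of these 12 genes then was lower. In KD-1 Ephx1 and Dram1 were below control, at 46.9 against 57.0 CPM and 2.28 against 3.36 CPM, and Sesn2 and Cpt1c were above it. Ephx1 and Dram1 thus had the direction of the fibroblast markers in both libraries, and the part of the feeder cells was not tested.

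The remaining 22 targets held the highest ratio of the 113 pathway genes in each knockdown library, Steap3 in KD-1 and Dcxr in KD-2. In KD-2, 11 of them were past the fold, all higher, where 17.1% of all genes were higher, and 21 of 22 were above control. With library totals 18 of 22 were past the fold higher, and with TMM or DESeq2's size factors 13 were. All genes past the fold higher in KD-2 rose as well, from 2847 of 16670 to 3942 with library totals. They were 3098 with TMM and 3077 with DESeq2's size factors. In KD-1, 1 was past the fold higher and 3 were lower, with a median of -0.04, where 8.63% of all genes were higher and 5.62% lower. Dcxr, a carbonyl reductase, had 1491 control reads, 1559 KD-1 reads and 4097 KD-2 reads, at a log2 ratio of 1.35 in KD-2 (interval 1.26 to 1.44). Steap3, a metalloreductase of the transferrin cycle, had 221 control reads, 510 KD-1 reads and 396 KD-2 reads. It was past the fold in both knockdown libraries, at 0.98 and 0.73, where 3.64% of all genes were past the fold higher in both. These comparisons share the control library. Tap1, a peptide transporter of antigen presentation whose exons overlap those of Psmb9 on the opposite strand, was at -0.89 in KD-1. In KD-2 it was at 0.78, which is the direction of the fibroblast markers in both libraries.

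The regulators of p53 were mostly below control in KD-2. In KD-1, 1 of 23 was past the fold, where 14.2% of all genes were, the methyltransferase gene Setd7 at 0.78, which was named after its value was seen. In KD-2, 18 of 23 were below control, with a median of -0.21, and 4 were past the fold lower, where 10.2% of all genes were. These were the checkpoint kinase genes Chek2 and Chek1, at -0.76 and -0.68, and Atr and Rpl5, at -0.62 and -0.63, of which Chek1, Atr and Rpl5 were named after their values were seen. Exons of Setd7, Atr and Rpl5, like those of Gls2 above and Ccna2 below, overlap a gene on the opposite strand, and the strand counted is not known. With library totals 14 of 23 were below control, 1 was past the fold lower and 3 were past it higher. With that scaling 820 of all 16670 genes were past the fold lower in KD-2 and 3942 higher. Chek2 had 4783 control reads, 5156 KD-1 reads and 3035 KD-2 reads. Cdkn2a, whose locus encodes ARF, the antagonist of MDM2, had 1650 control reads, 1717 KD-1 reads and 3768 KD-2 reads. At 1.08 (interval 1.00 to 1.17) it was the 1 regulator past the fold higher in KD-2 with upper-quartile scaling. TMM and DESeq2's size factors gave 2, where 3098 and 3077 of all 16670 genes were past the fold higher. In KD-1 Cdkn2a was at -0.17, so that its direction in both libraries was that of the fibroblast markers. Ep300, a coactivator that acetylates p53, had 2089 control reads, 3607 KD-1 reads and 1952 KD-2 reads, at 0.56 and -0.21.

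Cell cycle genes that p53 is known to repress through p21 and the DREAM complex were at a median of 0.04 in KD-1. This sign turned with DESeq2's size factors, to -0.03. None of the 20 was past the fold in KD-1, where 14.2% of all genes were. In KD-2, 16 of 20 were below control, with a median of -0.41, and 5 were past the fold lower, where 10.2% of all genes were. These were Ccnb1, Ccna2, Birc5, Bub1 and Top2a, at -0.62, -0.60, -0.62, -0.65 and -0.76, of which the first 4 were named after their values were seen. With TMM or DESeq2's size factors 2 of the 20 were past the fold, and with library totals 1 was. Of all 16670 genes, 1392, 1415 and 820 were past it lower in KD-2 with these scalings. Top2a, the topoisomerase of dividing cells, had 82922 control reads, 80804 KD-1 reads and 52724 KD-2 reads. The ES cell markers, whose cells divide in this culture while irradiated feeder cells do not, had a median of 0.08 (KD-1) and -0.30 (KD-2), and the part of the ES cell share in the cell cycle genes was not tested.

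**Figure D3:**
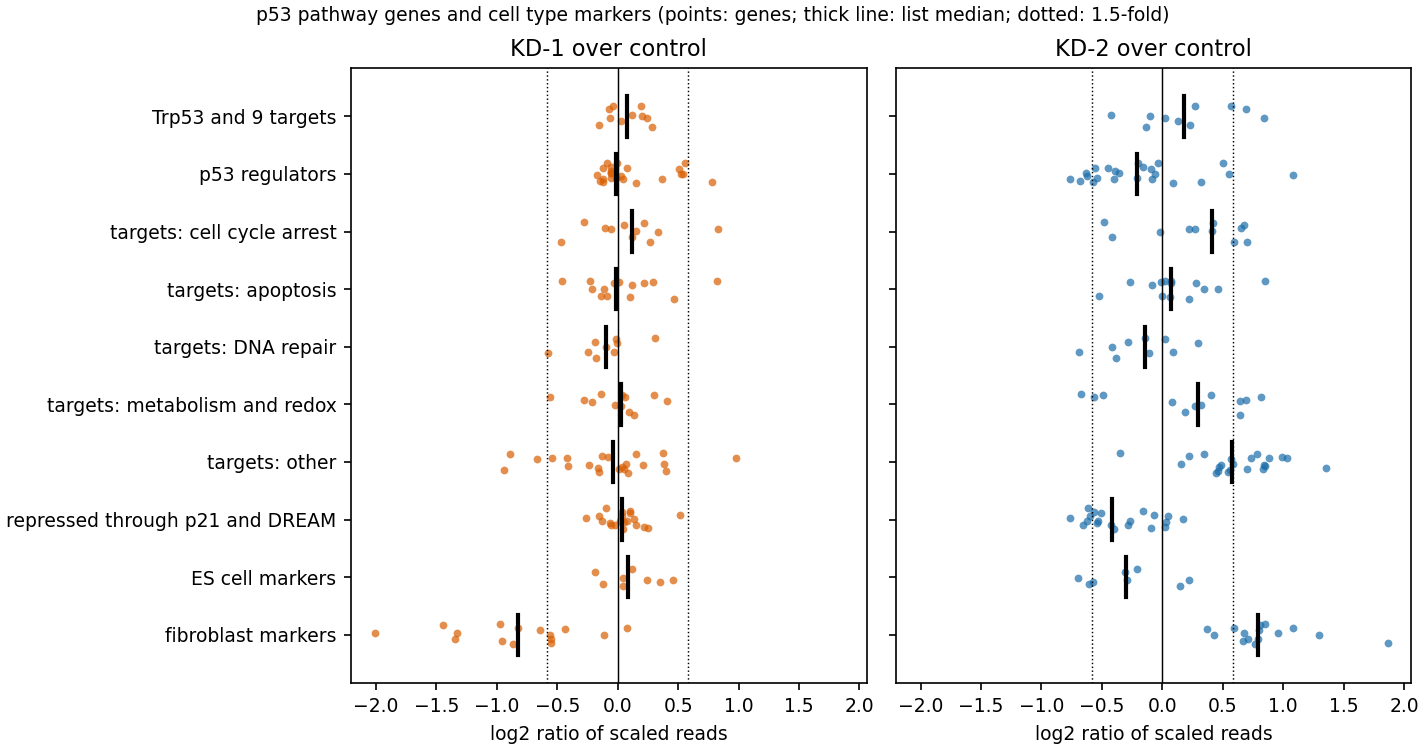
Log2 ratios of KD-1 over control and KD-2 over control for the 10 genes, other p53 pathway genes by role, and markers of ES cells and fibroblasts, with 1 point per gene, a thick line at the median of the list and dotted lines at 1.5-fold. The p53 family (Trp73 and Trp63) is not plotted. In KD-1 the medians of the plotted p53 lists lie between -0.10 and 0.12, while that of the fibroblast markers is -0.83. In KD-2 they spread from -0.41 for genes repressed through p21 and DREAM to 0.58 for the remaining targets, with the fibroblast markers at 0.79.

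Of the relatives of p53, Trp73 had 146 control reads, 300 KD-1 reads and 276 KD-2 reads. It was past the fold in both knockdown libraries, with log2 ratios of 0.81 in KD-1 (interval 0.52 to 1.11) and 0.81 in KD-2 (interval 0.52 to 1.11). Trp63 had 40, 34 and 61 reads. Trp73 and Steap3 were the 2 pathway genes averaging 50 reads or more that were past the fold on the same side in both knockdown libraries. Both were higher. Among all 16670 genes, which include genes averaging fewer than 50 reads, 3.64% were past the fold higher in both and 0.99% lower in both. The same control count of 146 reads enters both ratios of Trp73, so that they are not independent of each other.

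The likeness of other genes was measured by the distance between their pairs of log2 ratios in KD-1 and KD-2, over 3 libraries and 12742 other genes that averaged 100 reads or more. Closest to Trp53 were Ptpn12, Cdk13 and Sec24c, at distances of 0.00255, 0.00605 and 0.00623, and 378 genes lay within 0.1. Closest to Cdkn1a were Hes6, Taf1c and Nrip1, at distances of 0.0117, 0.0144 and 0.0165, and 147 genes lay within 0.1. With 3 libraries many genes share a pattern, and these neighbours are named by the measure alone.

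**Figure D4:**
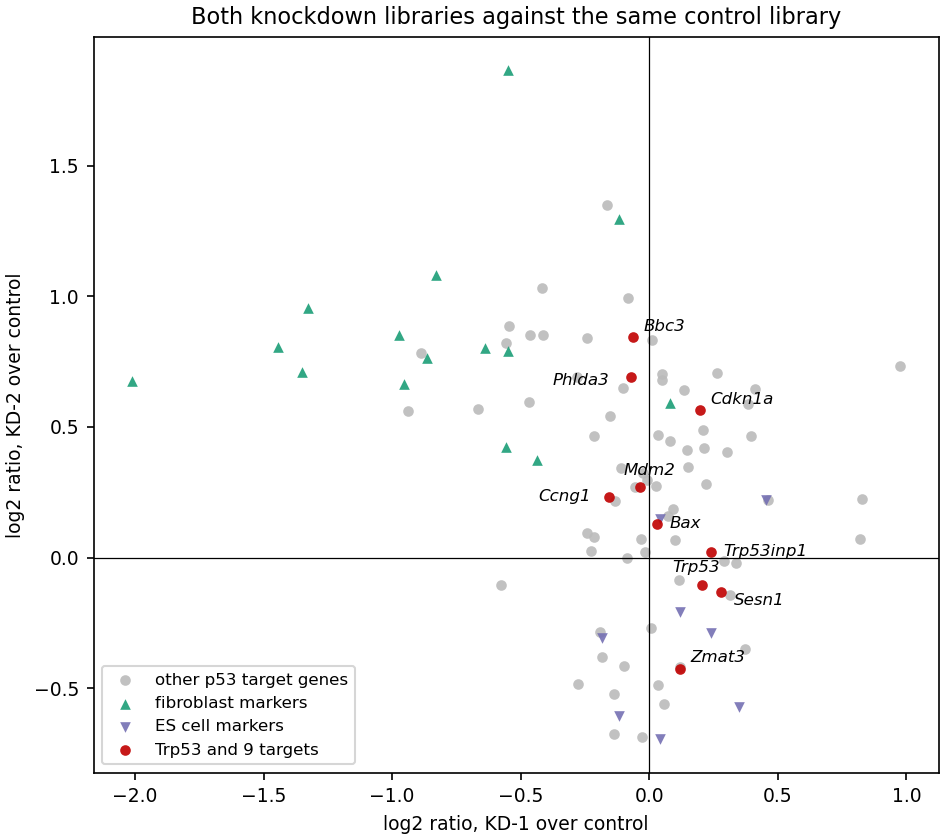
Log2 ratio in KD-1 (horizontal) and in KD-2 (vertical) against the same control library for the 10 genes, other p53 target genes, fibroblast markers and ES cell markers, with 1 point per gene. The 10 genes lie between -0.15 and 0.28 in KD-1 and between -0.43 and 0.84 in KD-2. Of the 15 fibroblast markers, 14 lie in the upper left, below control in KD-1 and above it in KD-2.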

How the data were processed

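Total RNA was depleted of ribosomal RNA (Ribo-Zero Gold) and sequenced as single-end reads. Per the submitters' processing notes, reads were trimmed with Trim Galore 0.4.1 and mapped with TopHat2 2.1.1 to mm10 (GRCm38). The files deposited by the authors hold whole-number read counts for each gene that were not normalized. The methods name featureCounts and the notes HTSeq, and the strand counted is not given in the sources used here. Reads outside of genes (21.5% to 24.1%) and ambiguous reads (1.45% to 1.65%) were left out, and reads shared by overlapping genes are among the latter.

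Libraries were scaled by upper-quartile normalization over genes with a read (edgeR 4.0.16, R 4.3.3). Log2 ratios used a pseudocount of 0.5 reads, genes averaging 10 reads or more and a 1.5-fold threshold, and their 95% intervals are exact conditional binomial (Clopper-Pearson). Exon lengths came from GENCODE vM21, and gene positions and promoter sequences from RefSeq (GRCm38.p6), both of the assembly named for the files. Exons of none of the 10 genes overlapped another counted gene. Both knockdown libraries were tested against control with edgeR's quasi-likelihood test (Benjamini-Hochberg adjustment, 0.05), and with DESeq2 1.42.0 as an alternative. The spike-in sequences behind the study's fixed dispersion were not used here, so that its likelihood ratio test was not run. Other alternatives were TMM, DESeq2's size factors, library totals, a pseudocount of 5 reads, a fold above 2, other minimum means, and, chosen after seeing the data, the upper quartile of genes averaging 10 reads or more.

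The 10 genes, the lists of other genes and the markers (ES cells, fibroblasts, primitive endoderm, trophoblast) were chosen with earlier results of these data known. Named genes were the 10, Nup153, other pathway genes averaging 50 reads or more that were past the fold in both knockdowns or were among the 2 highest and 2 lowest of a pair of libraries, the 3 nearest genes to Trp53 and Cdkn1a, and markers. The test and the scaling were checked on simulated data. Of the genes that this rule names or that lie past the fold in a short list, 2 are not reported here.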

Additional observations from a re-analysis of the deposited data

Results flagged for a closer look

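In 6 of the 10 genes the knockdown libraries lay on opposite sides of control, with counting intervals that exclude 0 in both, where 19.1% of all 16670 genes did. The log2 ratio of KD-2 over KD-1 was 0.76 for Phlda3, 0.39 for Ccng1 and 0.30 for Mdm2, which were above control in KD-2. It was -0.54 for Zmat3, -0.41 for Sesn1 and -0.31 for Trp53, which were above control in KD-1. With 1 library per shRNA the difference was not tested against the spread between cultures. The count was 4 with TMM and with library totals (Mdm2, Ccng1, Phlda3 and Zmat3), 4 with DESeq2's size factors (Mdm2, Ccng1, Bax and Phlda3) and 3 with the upper quartile of genes averaging 10 reads or more (Ccng1, Phlda3 and Zmat3), a setting chosen after seeing the data, as was the comparison of this count across scalings. The share of all genes then lay between 17.8% and 19.0%.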

How the results depend on the processing

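Scaling moved the values in KD-2 most. Library totals shifted the median of all genes in KD-2 over control from -0.02 to 0.14, and genes past the fold there from 2847 higher and 1700 lower to 3942 higher and 820 lower. For KD-2 over KD-1 the split was 2691 and 2322, with DESeq2's size factors 3172 and 1555, and with library totals 3525 and 1229. With a fold above 2, 0 of the 10 genes were past it in KD-2 over control and in KD-2 over KD-1, and 0, 3 and 13 other pathway genes were past it in KD-1 over control, KD-2 over control and KD-2 over KD-1. Over all genes 770, 1212 and 1839 were past a fold of 2 in these comparisons. Without a minimum mean 5298, 7461 and 8080 genes were past the fold of 1.5, and with a minimum mean of 100 reads 1028, 2852 and 3318, since fewer genes were considered. For both knockdown libraries against control, 0 genes were called with DESeq2's size factors (123 at an unadjusted p under 0.05), 2 with the Wald test of DESeq2 and 2 without a minimum mean, and the 10 genes were called by none of these. Of 150 values of the 10 genes under other scalings or pseudocounts, 95 stayed within the counting interval and 55 moved out of it. Leaving out a knockdown library leaves the ratio of 1 library to control, a value with no test, and no count of calls. No paired analysis was possible because each condition has 1 library. The counting intervals leave out the spread between cultures, which 1 library per condition cannot give.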

Other observations

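Summed levels of markers of other early lineages were below those of the fibroblast and ES cell markers in all 3 libraries. The 6 primitive endoderm markers added up to 7.80 CPM (control), 9.44 CPM (KD-1) and 11.3 CPM (KD-2), and the 7 trophoblast markers to 48.4, 42.9 and 40.2 CPM. Most of the latter sum came from Tfap2c, at 38.4, 29.8 and 28.5 CPM. Of the 6 trophoblast markers that averaged 10 reads or more, 3 were past the fold higher in each knockdown library, where 8.63% (KD-1) and 17.1% (KD-2) of all genes were, and 0 were lower (1 in KD-1 with DESeq2's size factors), with median log2 ratios of 0.44 (KD-1) and 0.51 (KD-2). Eomes had 249 control reads, 463 KD-1 reads and 406 KD-2 reads, while Cdx2 had 6, 25 and 24 and Gata3 had 17, 41 and 33, and the interval of Gata3 in KD-2 (-0.04 to 1.79) covers 0. Eda2r, a receptor gene of the TNF receptor family and p53 target that was singled out after its values were seen, had 22411 control reads, 23862 KD-1 reads and 16821 KD-2 reads. At 54.4 RPKM in control it was the highest of the 15 other apoptosis targets per length, and its log2 ratio was -0.14 (KD-1) and -0.52 (KD-2).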
